A study of Mus musculus with 6 samples.

Results

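Many short-lived mRNAs carry decay signals in the 3′ untranslated region (UTR), and a small set of proteins reads these signals and sets how long the mRNA lasts. The mRNAs of 10 such proteins were followed here in splenic NK cells with and without METTL3. The 10 genes were chosen by symbol, as the listed AU-rich element and stem-loop decay factors, and all 10 were among the 14490 genes with deposited values. NK cells were sorted from the spleens of C57BL/6 mice of 2 genotypes, with 3 samples per genotype. WT cells came from Mettl3fl/fl mice, whose floxed Mettl3 gene is intact. The cKO cells came from mice labelled Ncr1Cre-Mettl3fl/fl, with Cre on 1 of the Ncr1 alleles (Ncr1Cre/+) by the study's methods. In these mice Cre made from the Ncr1 locus deletes Mettl3 in cells that express NKp46, so NK cells lose METTL3 from the stage at which NKp46 appears. Both genotypes carry the floxed alleles, the mice of the study were 6 to 10 weeks of age, and no treatment is given in the labels for these samples. No Cre allele is named for the WT mice, so loss of Mettl3 and the Cre allele at Ncr1 cannot be told apart. The labels do not say whether samples of one genotype came from separate mice, so p-values measure the spread between these samples, which may be technical.

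AU-rich elements are built from repeats of AUUUA, which often overlap or lie side by side. ZFP36, ZFP36L1 and ZFP36L2 are zinc finger proteins that bind them and bring in the enzymes that remove the poly(A) tail. KHSRP also speeds the decay of such mRNAs, ELAVL1 (HuR) mostly protects them, and TIA1 holds back their translation. A different signal is a short stem with a loop of 3 bases. It is bound by Roquin-1 and Roquin-2, the products of Rc3h1 and Rc3h2, and cut by Regnase-1, the endonuclease encoded by Zc3h12a, whose relative Zc3h12d encodes Regnase-4. METTL3 is the catalytic subunit of the enzyme that writes N6-methyladenosine (m6A), for which GGACU is a common core sequence.

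Several of these factors are encoded by mRNAs that hold the same signals, so stretches of their own 3′ UTRs are shown first. The sequences are 30-base windows of GENCODE M21 transcripts on GRCm38, written 5′ to 3′ as DNA on the strand of the mRNA, with matches to TTATTTATT in capitals. Each match to TTATTTATT also holds ATTTA, and neighbouring matches may overlap. The windows lie at chr7:28376951-28376980 for Zfp36, chr12:80108167-80108196 for Zfp36l1, chr17:84184914-84184943 for Zfp36l2, chr2:37373287-37373316 for Rc3h2 and chr8:4285780-4285809 for Elavl1, all on the minus strand.
Zfp36: ttatgacgactTTATTTATTgtattaagat
Zfp36l1: aaactgttggaTTATTTATTttagaaattc
Zfp36l2: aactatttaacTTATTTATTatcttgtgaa
Rc3h2: acaaagacattTTATTTATTttactctgta
Elavl1: aaaTTATTTATTTATTTATTTATTtTTATT
The 3 members of the ZFP36 family, Rc3h1 and Rc3h2 each held 1 match, and Elavl1 held 8 that lay close together, most of them overlapping a neighbour. Among 3′ UTRs within 20% of the same length, TTATTTATT was found in 4.42% for the length of Zfp36, 8.64% for Zfp36l1, 8.62% for Zfp36l2, 25.7% for Rc3h1, 20.9% for Rc3h2 and 18.5% for Elavl1. Zc3h12a, Zc3h12d, Khsrp and Tia1 held none.

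The signals read by Regnase-1 and the Roquins were searched as TTCNNNGAA, a stem of 3 base pairs around a loop of 3 bases, in the genes that they are known to act on. Tnf and Nfkbiz held 1 match each, Nfkbid and Rel held 2 each and Icos held 3. For Icos only match 3 is shown, and for Rel only match 1. The Icos matches not shown read TTCTCAGAA and TTCCTTGAA, and that of Rel reads TTCTTGGAA. The windows are shown because Tnf, Nfkbid, Nfkbiz, Icos and Rel, all described below, are known targets of these proteins. Capitals mark TTCNNNGAA. They lie at chr17:35199578-35199607 for Tnf, chr16:55812607-55812636 for Nfkbiz and chr11:23740209-23740238 for Rel on the minus strand, and at chr7:30428394-30428423 and chr7:30428422-30428451 for Nfkbid and chr1:60999478-60999507 for Icos on the plus strand.
Tnf: acagacatgttTTCTGTGAAaacggagctg
Nfkbid, first match: ttctaggtgatTTCTGTGAAatcgagccca
Nfkbid, second match: cacttgattgtTTCTGTGAAacactctaga
Nfkbiz: atgtaagttgtTTCTATGAAacaaacccat
Icos: aagaacaaaatTTCTGTGAAataaaatctg
Rel: tattctttttcTTCAGTGAAtatcttttcc
Tnf also held 5 overlapping matches to TTATTTATT, of which the window at chr17:35199678-35199707 on the minus strand covers the middle.
Tnf, AU-rich element: TTATTTATTATTTATTTATTATTTATTTAT
Matches to TTCNNNGAA are common: 20.6% of 3′ UTRs as long as that of Tnf, 15.3% as long as that of Nfkbid, 36.0% as long as that of Nfkbiz, 59.5% as long as that of Icos and 86.4% as long as that of Rel held at least 1. Among the decay factors, Rc3h1 held 7 such matches and Rc3h2 held 3. Zfp36l1, Zfp36l2, Zc3h12d and Elavl1 held 1 each, and Zfp36, Zc3h12a, Khsrp and Tia1 held none. Of 3′ UTRs as long as those of Rc3h1, Rc3h2 and Zc3h12a, 86.1%, 85.2% and 23.6% held at least 1. For the m6A core GGACT, Zfp36l1 held 5 matches, where the median of 3′ UTRs of like length is 2. Khsrp held 3 against a median of 1, and Elavl1 held 4 against 3. Zfp36, Zfp36l2 and Tia1 held 1, 2 and 3, each equal to the median for its length. Rc3h1 and Rc3h2 each held 3, below medians of 6 and 4. Zc3h12a and Zc3h12d held no GGACT, against 57.0% and 87.5% of 3′ UTRs of like length with a match. A match is a description of the letters in the 3′ UTR and was not tested as a bound or methylated site.

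The mRNA values are read counts per gene divided by the DESeq2 size factor of each sample, termed normalized counts here. Reads on the listed genes numbered 55965515 to 67732352 per WT sample and 62995813 to 71464042 per cKO sample. For Mettl3, the deleted gene, the normalized counts were 1303, 1258 and 1192 in the WT libraries against 297, 299 and 405 in the cKO libraries, a log2 fold change of -1.92 (SE 0.0986, adjusted p = 2.32e-14 by limma). All 10 NK markers, such as Ncr1, Klrb1c and Eomes, were present, with summed normalized counts of 884021 to 911871 in WT and 856246 to 894353 in cKO. Of the NK markers 2 were higher and 5 lower in cKO, but 4 and 4 with samples scaled to equal totals. Under that scaling 24.1% of all genes were higher and 13.9% lower. Markers of other cells were far less abundant, and those of B cells and myeloid cells mostly moved with genotype. Of 8 B-cell markers 7 were higher in cKO, with summed counts of 9363 to 10255 in WT and 10893 to 11525 in cKO, and 4 of 5 myeloid markers differed, 3 of them higher, with sums of 46153 to 48986 and 48833 to 50405. The T-cell markers summed to 2559 to 2739 in WT and 2247 to 2465 in cKO, with 1 of 7 lower, and none of 5 erythroid and platelet markers passed the test. Among the markers not in the deposited table were Cd8b1, S100a8, S100a9, Ly6g, Pf4 and Ppbp. By the same test 36.6% of all genes passed. The calls of the B-cell markers Cd22, Ighd, Ighm, Ms4a1 and Pax5 were each lost with some replicate left out. So were those of the myeloid markers Cd14 and Itgax. The part of other cells in the results below was not tested.

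The decay factors differed widely in level. Divided by transcript length, Zfp36 stood at 101896 ± 2150 normalized counts per kb in WT (SD, n = 3) and 118583 ± 2224 in cKO. Zfp36l2 followed at 84442 ± 1226 and 94957 ± 1795. By their mean over all samples these 2 genes were above 99.8% and 99.7% of the 14105 genes with a known transcript length, whose median was 344 per kb. Zc3h12a, at 23705 ± 526 per kb in WT and 18401 ± 214 in cKO, was also among the highest genes, above 98.4% of them. Zfp36l1 stood at 5798 ± 309 per kb in WT and 6527 ± 425 in cKO, and Khsrp at 2005 ± 50.6 and 2274 ± 33.9. The others lay nearer to the median gene. Rc3h1 had 836 ± 30 per kb in WT and Elavl1 had 810 ± 14.9, and these neighbours overlapped in WT but not in cKO, where they had 864 ± 53.3 and 753 ± 35.3. Tia1 had 446 ± 15.9 per kb in WT and 525 ± 17.9 in cKO. Rc3h2 and Zc3h12d were below the median gene, with 211 ± 12 and 104 ± 12.1 per kb in WT. The samples of all other neighbours in this order did not overlap in either genotype.

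**Figure D1:**
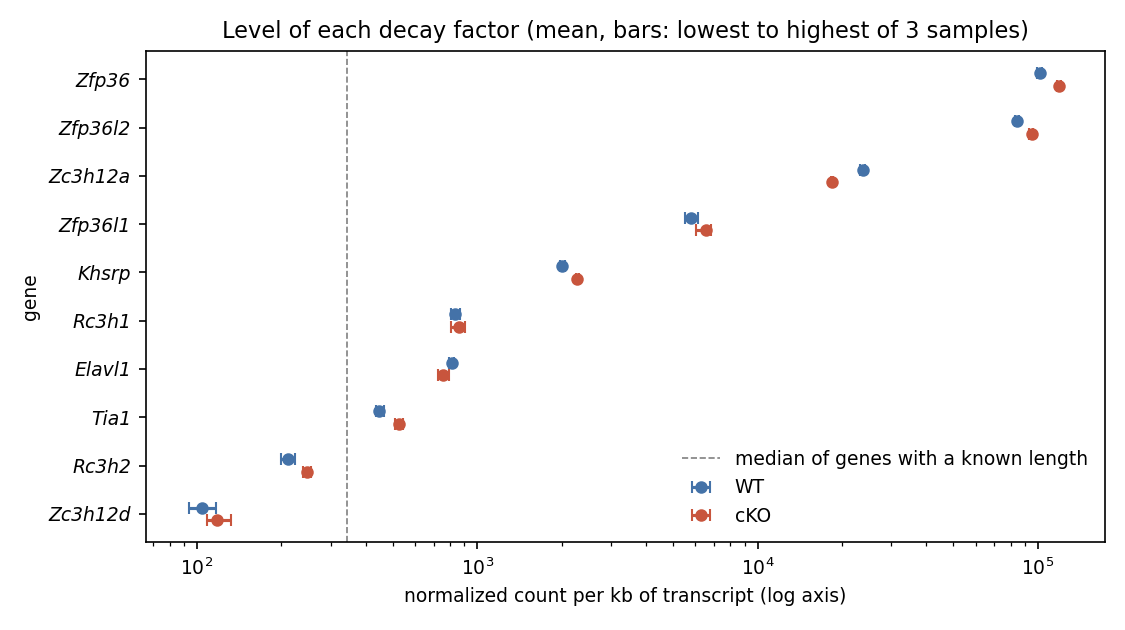
Level of the 10 decay factors in normalized counts per kb of transcript on a log axis, with the mean of 3 WT (blue) and 3 cKO (red) samples and bars from the lowest to the highest sample. Zfp36 and Zfp36l2 lie farthest to the right in both genotypes, at 84442 to 118583 per kb, Zc3h12a lies next, and Rc3h2 and Zc3h12d lie left of the dashed line at 344, the median of genes with a known length.

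Within families the levels were very unequal. Zfp36 made up 53.0% ± 0.606 of the summed ZFP36 family mRNA per kb in WT (SD, n = 3) and 53.9% ± 0.647 in cKO, and Zfp36l2 made up 44.0% ± 0.646 and 43.1% ± 0.562. Zfp36l1 contributed 3.02% ± 0.117 in WT and 2.96% ± 0.154 in cKO. Of the mRNA of both Regnase genes followed here, nearly all was Zc3h12a, with 0.435% ± 0.0534 from Zc3h12d in WT and 0.637% ± 0.0704 in cKO. Of the Roquin mRNA, 79.9% ± 1.35 came from Rc3h1 in WT and 77.6% ± 1.36 in cKO.

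Between genotypes, 8 of the 10 decay factors passed an adjusted p of 0.05, 6 higher and 2 lower in cKO. Among all 14490 genes, 17.8% were higher and 18.8% lower, so 36.6% passed in either direction. The median log2 fold change of the 10 genes was 0.18, against 0.0014 over all genes. Taken without sign, the median change was 0.18 for the 10 genes and 0.17 over all genes, so the changes were of ordinary size. The changes were small: none reached 1 on the log2 scale, and the 95% confidence interval of each of the 10 lay within -0.5 to 0.5. Zc3h12a moved the most, and its change was larger in size than those of 79.3% of all genes. For 7 of the 10 genes the genotypes did not overlap, 5 with cKO above and 2 with cKO below. Of all genes, 45.7% had no overlap, 22.7% with cKO above and 23.0% with cKO below. With samples scaled to equal totals, the same 6 were higher and Zc3h12a was the 1 member that was lower, where 24.1% of all genes were higher and 13.9% lower.

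The mRNAs of the ZFP36 family, the main promoters of AU-rich element decay, were all higher in cKO. Zfp36 normalized counts were 288269, 287206 and 277390 in WT and 328932, 337780 and 325823 in cKO. Every cKO sample was above every WT sample, and the log2 fold change was 0.22 (SE 0.0309, adjusted p = 2.69e-06 by limma), a rise of 16.4%. Zfp36l2 had 302115, 293508 and 298615 in WT and 327954, 337930 and 339709 in cKO. Its genotypes were likewise separate, with a log2 fold change of 0.17 (SE 0.0305, adjusted p = 7.51e-05 by limma). Zfp36l1, the least abundant of the family, had 18336, 17162 and 16513 in WT and 18064, 20438 and 20042 in cKO. The first cKO sample fell below the highest WT sample, so the genotypes overlapped, and the log2 fold change was 0.17 (SE 0.0406, adjusted p = 0.00153 by limma). Summed per kb, family mRNA was 192136 ± 2763 in WT and 220066 ± 3409 in cKO (SD, n = 3). Each of the 3 loci overlaps a gene annotated on the opposite strand, and Zfp36l1 has an annotated pseudogene copy. Whether reads were counted by strand is not given in the sources used here, so reads from such partners cannot be told apart.

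Zc3h12a, which encodes the stem-loop endonuclease Regnase-1, went the opposite way. Its normalized counts were 66777, 65269 and 63879 in WT against 50510, 51354 and 50217 in cKO. All cKO samples were far below all WT samples, the log2 fold change was -0.37 (SE 0.0291, adjusted p = 1.39e-10 by limma), and the percent change was -22.4. On the log2 scale the 95% confidence interval ran from -0.43 to -0.31. Its relative Zc3h12d, which is expressed at a low level, had 384, 479 and 408 in WT and 446, 462 and 540 in cKO. These values overlapped and varied more than those of any other member, with a coefficient of variation of 11.7% in WT, and the log2 fold change of 0.19 did not pass (95% confidence interval -0.029 to 0.41, adjusted p = 0.175 by limma).

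Of the Roquin genes Rc3h2 passed the test and Rc3h1 did not. Rc3h2 had 1967, 1760 and 1832 normalized counts in WT and 2113, 2190 and 2253 in cKO. The lowest cKO sample was above the highest WT sample, with a log2 fold change of 0.24 (SE 0.0526, adjusted p = 0.000696 by limma). The more abundant Rc3h1 had 8876, 9176 and 9535 in WT and 9993, 8860 and 9688 in cKO. The genotypes were interleaved, and the log2 fold change of 0.048 did not pass the test (95% confidence interval -0.034 to 0.13, adjusted p = 0.382 by limma).

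The 3 remaining proteins bind AU- and U-rich sequence with different outcomes. Khsrp, which promotes decay, had 7826, 7901 and 8206 normalized counts in WT and 8968, 9203 and 8970 in cKO. The groups were separate, with a log2 fold change of 0.18 (SE 0.0342, adjusted p = 0.000125 by limma). Tia1, which encodes a translational silencer found in stress granules, had 1967, 2078 and 1946 in WT and 2284, 2331 and 2440 in cKO. All cKO samples were above all WT samples, with a log2 fold change of 0.24 (SE 0.0495, adjusted p = 0.000432 by limma). Elavl1, which encodes the stabilizing protein HuR, had 4654, 4735 and 4564 in WT and 4285, 4148 and 4547 in cKO. The highest cKO sample lay just below the lowest WT sample. Its log2 fold change was -0.11 (SE 0.041, adjusted p = 0.0457 by limma), the weakest call among the 10. This call was lost with equal totals (adjusted p = 0.318) and without WT replicate 1 (0.0876), WT replicate 2 (0.127), cKO replicate 1 (0.132) or cKO replicate 2 (0.203). The Elavl1 and Khsrp loci also overlap genes on the opposite strand, and Tia1 overlaps a gene on its own strand.

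**Figure D2:**
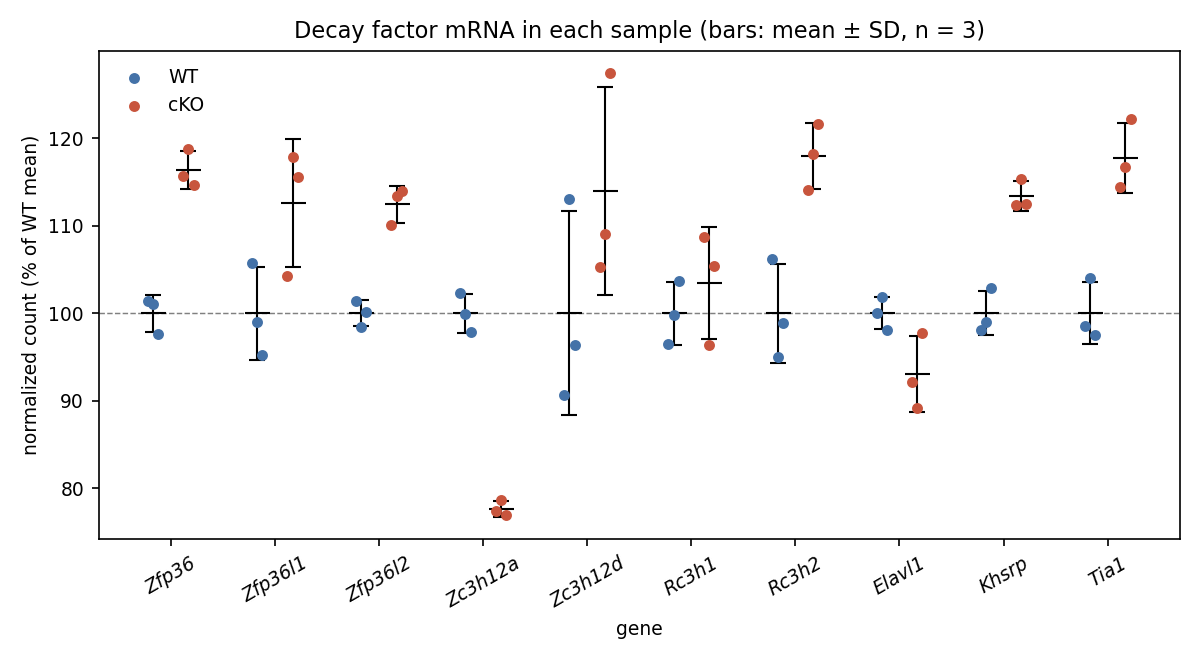
Normalized count of each decay factor in every sample, as a percentage of the gene's WT mean, with bars for the mean ± SD of 3 samples. Zc3h12a stands alone below 80% in all 3 cKO samples, 5 genes have all cKO points above all WT points, and the points of Zfp36l1, Zc3h12d and Rc3h1 overlap between genotypes.

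Ratios of related genes within a sample do not depend on how samples are scaled to each other, and 5 such ratios were compared. The log2 ratio of Zc3h12a to Zc3h12d was 7.44, 7.09 and 7.29 in WT and 6.82, 6.79 and 6.54 in cKO, a difference of -0.55 with no overlap. The log2 ratio of Tia1 to its paralogue Tial1 was -1.91, -1.92 and -1.98 in WT and -1.69, -1.69 and -1.55 in cKO, a difference of 0.29, again with no overlap. Both reached the smallest p possible, an exact permutation p of 0.1, two-sided, which is 0.25 after Benjamini-Hochberg adjustment over the 5 ratios. Tial1 itself had a log2 fold change of -0.057 that did not pass (adjusted p = 0.237 by limma). The other ratios overlapped between genotypes. Zfp36 to Zfp36l2 differed by 0.050 and Rc3h1 to Rc3h2 by -0.19, each with an exact permutation p of 0.2. The ratio of Zfp36l1 to Zfp36l2 was -4.10 ± 0.068 in WT and -4.10 ± 0.070 in cKO (SD, n = 3).

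**Figure D3:**
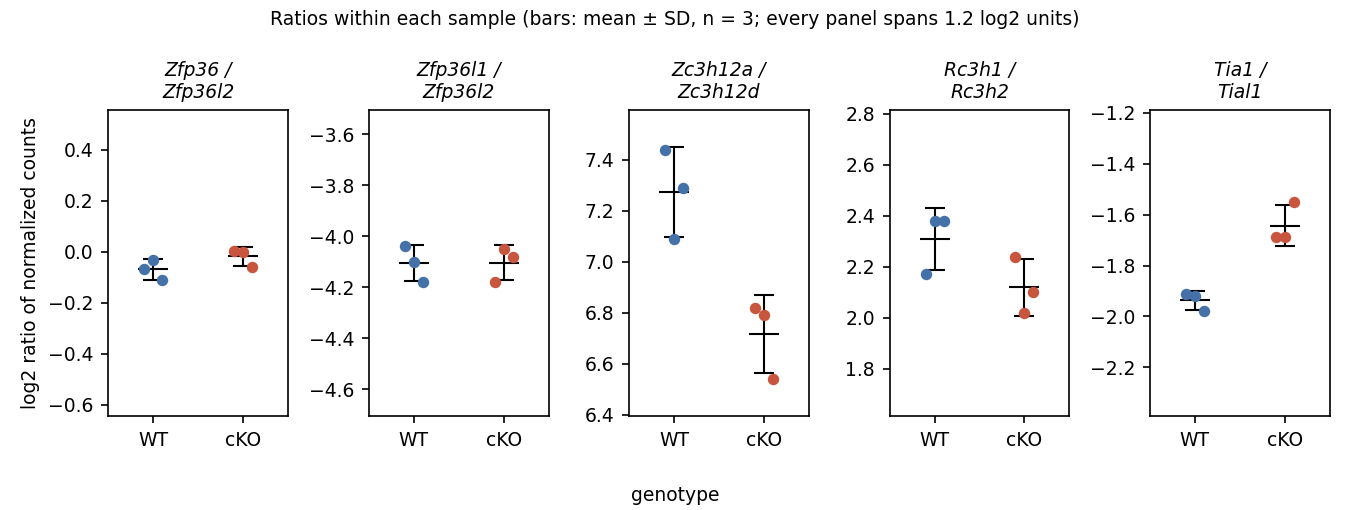
Log2 ratio of normalized counts for 5 pairs of related genes in each WT (blue) and cKO (red) sample, with bars for the mean ± SD of 3 samples and panels of equal span. The ratios of Zc3h12a to Zc3h12d and of Tia1 to Tial1 are separate between genotypes, and the ratios within the ZFP36 and Roquin families overlap.

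The enzymes and adaptors that act on these factors were examined as a list of 16 genes. Of these, 7 were lower and 2 higher in cKO, so 56.2% were called against 36.6% of all genes. The median log2 fold change of the list was -0.045. Ywhaz encodes a 14-3-3 protein of the kind that binds phosphorylated ZFP36. Its normalized counts fell from 66279 ± 1629 in WT to 49344 ± 1369 in cKO (SD, n = 3). The log2 fold change was -0.43 (adjusted p = 1.85e-11 by limma). Ywhab and Ywhae, the other 14-3-3 genes of the list, changed by -0.06 and 0.0089 and did not pass (adjusted p = 0.167 and 0.878 by limma). Both were named after their values were seen. Arid5a, which encodes a protein that protects stem-loop mRNAs from Regnase-1, fell from 23624 ± 83.0 to 18702 ± 426, a log2 fold change of -0.34 (adjusted p = 1.29e-09 by limma). Zc3h12a and the gene for its competitor were therefore both lower. Bcl10, part of the complex whose protease MALT1 cleaves Regnase-1 and Roquins, changed by -0.22 on the log2 scale (adjusted p = 8.56e-06 by limma). Mapk14, the p38 kinase upstream of ZFP36 phosphorylation, and Upf1, the helicase that works with Regnase-1, rose by 0.10 and 0.099 on the log2 scale (adjusted p = 0.0265 and 0.0170 by limma). The call of Mapk14 was lost without WT replicate 2 (0.168), cKO replicate 1 (0.0841) or cKO replicate 2 (0.0603), and that of Upf1 without WT replicate 1 (0.0683) or cKO replicate 3 (0.103). Map2k3 and Mapkapk2 encode kinases directly above and below p38. Both were lower, with log2 fold changes of -0.15 (adjusted p = 0.000651 and 0.000939 by limma), and passed under every alternative run. Their paralogues Map2k6 and Mapkapk3 did not pass, with log2 fold changes of -0.013 and 0.022 (adjusted p = 0.892 and 0.716 by limma). These kinases were named after their values were seen.

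Of 18 other proteins that bind AU-, U- or GU-rich elements, 4 were higher and 4 lower, so 44.4% were called against 36.6% of all genes. The median log2 fold change of the list was -0.057. Cpeb2, a regulator of poly(A) length and translation, rose from 2769 ± 115 to 3440 ± 118 normalized counts, a log2 fold change of 0.31 (adjusted p = 3.94e-06 by limma). Celf1, which binds GU-rich elements and promotes decay, rose by 0.26, and Fubp1, of the same family as Khsrp, by 0.16 on the log2 scale. N4bp1, a ribonuclease related to the Regnases, changed by -0.14 (adjusted p = 0.00105 by limma). Cpeb3 changed by -0.59 and Celf2 by -0.11. The call of Cpeb3, with 91.5 to 250 normalized counts in single samples, was lost without WT replicate 2 (adjusted p = 0.185) or cKO replicate 1 (0.167), and that of Celf2 with equal totals (0.130) and without WT replicate 1 (0.0518) or cKO replicate 1 (0.0513). The number called in the list was 5 in place of 8 without either WT replicate 2 or cKO replicate 1. Zfp36l3, Zc3h12c, Elavl2 and Elavl4 were not among the listed genes.

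Known targets of the ZFP36 family were compared next, because these mRNAs are the ones that AU-rich element decay keeps low. Of 21 listed targets 8 were higher and 2 lower in cKO, so 47.6% were called against 36.6% of all genes. Of all genes, 17.8% were higher and 18.8% lower. The median log2 fold change of the 21 targets was 0.16. Fos, an immediate early transcription factor, had 99528, 94171 and 94294 normalized counts in WT and 167487, 175321 and 166863 in cKO. Tnf, the classical target of ZFP36, had 2689, 2472 and 2608 in WT and 4522, 4629 and 4261 in cKO. Both were separate between genotypes by a wide margin, with log2 fold changes of 0.82 for Fos (adjusted p = 8.01e-17 by limma) and 0.79 for Tnf (adjusted p = 2.00e-13 by limma). Lif, a cytokine of the IL-6 family, rose by 0.62 from a low level. Vegfa and Pim1, a growth factor and a survival kinase, fell by 0.31 and 0.28 on the log2 scale (adjusted p = 9.53e-09 and 4.17e-08 by limma). By genotype mean, the mRNAs of the 3 ZFP36 family members and of 8 of the 10 called targets were higher in cKO, with overlapping samples for Zfp36l1. With 1 replicate left out, 7 to 9 of the targets were called higher. The motif search covered 20 of the 21 targets. Of the 11 with a TTATTTATT match 6 were higher and 1 lower, and of the 9 without a match 2 were higher and 1 lower. That lower gene is Vegfa, whose 3′ UTR in the transcript searched is 27 bases long.

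Known targets of Regnase-1 and the Roquins were mixed in direction. Of 14 listed targets 4 were lower and 3 higher in cKO, so 50% were called against 36.6% of all genes. The median log2 fold change was 0.12, and 6 of the 14 were also on the ZFP36 target list. Nfkbid, a nuclear regulator of NF-kB with 2 close TTCNNNGAA matches, had 93402, 90067 and 94821 normalized counts in WT and 70077, 69324 and 69279 in cKO. Nfkbiz, another nuclear NF-kB regulator, had 171134, 166441 and 161172 in WT and 133185, 138402 and 134706 in cKO. Both were lower in all cKO samples, with log2 fold changes of -0.41 and -0.30 (adjusted p = 1.47e-11 and 1.95e-08 by limma). Icos, a costimulatory receptor, changed by -0.60 and Rel, the NF-kB subunit c-Rel, by -0.29 (adjusted p = 1.34e-05 and 3.73e-08 by limma). Rel was named after its values were seen, since it completes the 4 lower genes. Ctla4, an inhibitory receptor, went up from 66.1 ± 17.1 to 139 ± 10.3 normalized counts (SD, n = 3), a log2 fold change of 1.09 (adjusted p = 0.000292 by limma). Tnf and Cxcl2, a chemokine, were the other higher genes. The call of Cxcl2, at 0.25 on the log2 scale with an adjusted p of 0.0150 by limma, was lost without WT replicate 3 (0.143) or cKO replicate 3 (0.0743). All 7 called targets held at least 1 TTCNNNGAA match, as did 6 of the 7 that did not pass.

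Zfp36, Zc3h12a, Tnf, Fos and Nfkbiz belong to genes that respond within minutes to hours to a stimulus, so immediate early genes were read from the same fit. Of 14 such genes 5 were higher and 5 lower in cKO, so 71.4% were called against 36.6% of all genes. With equal totals 7 were higher and 2 lower, where 24.1% of all genes were higher and 13.9% lower. Without cKO replicate 1 there were 5 higher and 2 lower. The 14 genes had summed normalized counts of 2726539 to 2784838 in WT and 2803384 to 2890674 in cKO. Hspa1a, Hspa1b and Fos rose by 0.87, 0.80 and 0.82 on the log2 scale. The heat shock genes Hspa1a and Hspa1b are near-identical copies whose reads cannot be assigned with certainty. Btg2, Fosb and Atf3 changed by -0.28, -0.23 and -0.099 (adjusted p = 4.66e-08, 1.34e-06 and 0.00809 by limma), and the call of Atf3 was lost with equal totals (0.138) and without cKO replicate 1 (0.0566). The part of handling or activation of the cells in the levels of the decay factors was not tested. In RNA from a bulk sample, fewer cells of a kind and less RNA per cell cannot be told apart.

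**Figure D4:**
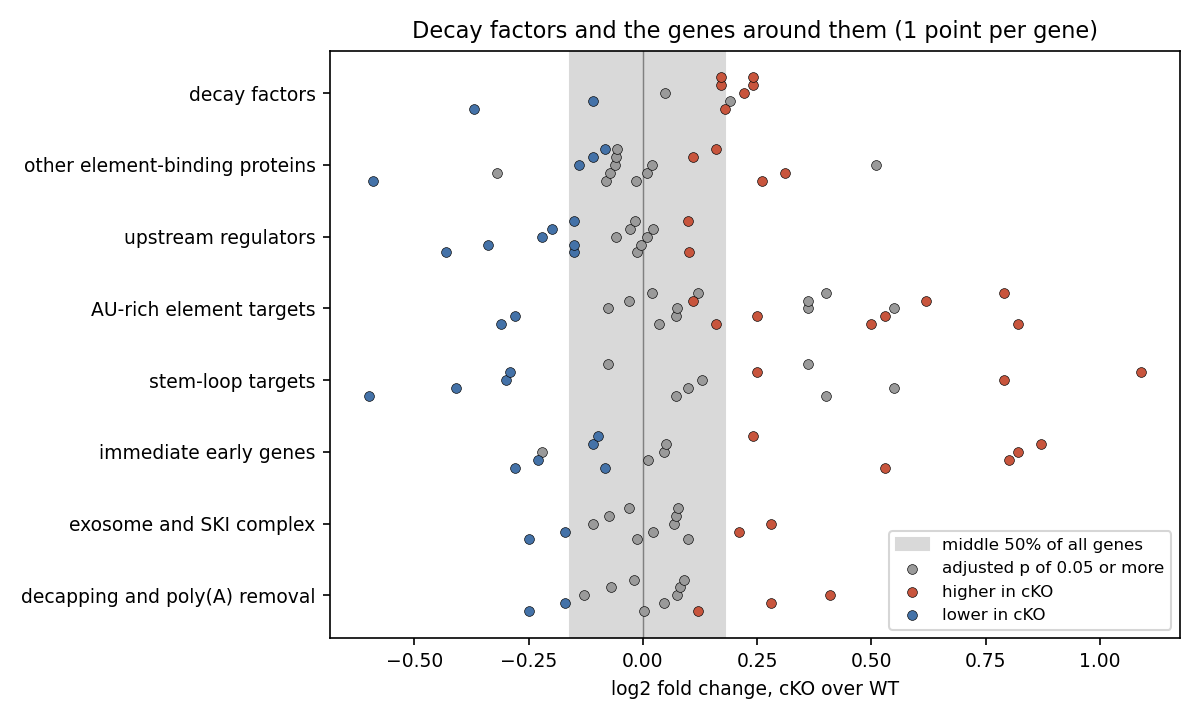
Log2 fold change of cKO over WT for every listed gene of the decay factors and of 7 related lists, with points coloured by the limma call and grey shading over the middle 50% of all genes. The decay factors lie within -0.37 and 0.24, while the target lists reach from -0.60 to 1.09.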

How the data were processed

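RNA from splenic NK cells of 3 WT and 3 cKO samples was sequenced after poly(A) selection. The authors aligned reads to GRCm38 with HISAT2, counted them with featureCounts 1.5.0-p3 and scaled them with DESeq2. Other HISAT2 and DESeq2 versions are named in different sources, and strand settings are not given in the sources used here. The deposited signal is the count per gene divided by the sample's size factor. The deposited columns of the authors' mean, log2 fold change, standard error, statistic, p-value and adjusted p-value were not used. The lowest mean in the deposited table is 16.7 normalized counts, and genes outside it were not analysed here.

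Values were taken as log2(value + 1), which draws low values together. The filter asked for 1 normalized count or more in 3 or more samples and removed 0 genes. Genotype was fitted with limma 3.58.1 in R 4.3.3, with the trend option. The tests were two-sided, and p-values of all 14490 genes were adjusted together by Benjamini-Hochberg. Ratios were compared by the exact permutation test over 20 assignments. The filter and the limma fit were tested on simulated data, and the permutation test was not. The worth of 1 read in each sample was found from the low values. All values divided by it were whole within 0.01 of a read, which gave the reads on listed genes. These totals are estimates, since in 4 of 6 samples the smallest value above 0 was 2 or 3 reads and the worth of a single read was not seen directly. Counting error is small for the members other than Zc3h12d, which had 384 to 540 normalized counts. Chi-square per degree of freedom was 5.50 to 8.00 for pairs of one genotype, so no library was a repeat of another.

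Of the gene names, 97.3% matched GENCODE M21, 19 were spreadsheet dates and 1 occurred a second time. Lengths and 3′ UTRs are those of 1 coding transcript per gene, of the best APPRIS level and then the longest. Per-kb levels depend on that choice. Motifs were searched on the mRNA strand only.

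Alternatives were a pseudocount of 0.1, no filter or at least 1 CPM in 3 samples, limma-voom, equal totals, a block for the replicate number, and each replicate left out. Named genes are the members, Mettl3, ratio partners and, in each list, up to 3 rises and 3 falls that did not overlap, averaged 1 CPM or more and had an adjusted p below 0.05. Values of some marker genes are not reported here. Members and lists were chosen with earlier results of these data known.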

Additional observations from a re-analysis of the deposited data

How the results depend on the processing

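The 6 rises and the fall of Zc3h12a among the decay factors passed under every alternative run, with 7 or 8 of the 10 genes called. The other fall, Elavl1, was lost under 5 settings. Of the calls over all genes 48.5% were higher and 51.5% lower. Under equal totals the split was 63.4% and 36.6% and the all-gene median of log2 fold changes was 0.051, and this scaling called 8 in place of 5 of the decapping and poly(A) removal genes. Leaving out 1 replicate gave 4417 to 4922 calls over all genes (5307 with all samples), 5 to 8 among other element-binding proteins and 2 to 4 in the exosome and SKI complex, where it was 2 without WT replicate 1 or cKO replicate 3. It moved the difference in the log2 ratio of Zfp36l1 to Zfp36l2 between -0.035 and 0.040, with values below 0 of -0.035 without WT replicate 3, -0.028 without cKO replicate 2 and -0.0098 without cKO replicate 3. The cause was not tested.

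Same-numbered samples of the 2 genotypes had correlations of -0.024, 0.12 and 0.045 between their deviations from the genotype means. Samples of different number had -0.10 to 0.062, so 0.12 was the highest value. All were low, and the numbers were not taken to pair the samples. With the replicate number as a block, 5543 genes were called, against 5307 without it, and the same 8 of 10 decay factors passed. The edgeR and DESeq2 tests planned on reads recovered from the values were not run, because that reading of the values as whole reads was not settled. With 3 samples per genotype, a change of the size seen for Zc3h12d was within the spread between samples.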

Other observations

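The enzymes that carry out decay after these factors have bound were mixed in direction. Of 13 decapping and poly(A) removal genes 3 were higher and 2 lower in cKO, which is 38.5% called against 36.6% of all genes, and the median log2 fold change was 0.047. With equal totals 6 were higher and 2 lower, where 24.1% of all genes were higher and 13.9% lower. Lsm1, part of the ring that starts decapping, rose from 961 ± 109 to 1272 ± 62.2 normalized counts (SD, n = 3), a log2 fold change of 0.41 (adjusted p = 6.68e-05 by limma), and the decapping enhancer Edc3 rose by 0.28. Pan3, a partner of the deadenylase PAN2, rose by 0.12, a call lost without WT replicate 1 (adjusted p = 0.0532) or cKO replicate 1 (0.0819). Ddx6, the helicase that links repression to decapping, went from 27125 ± 521 to 22752 ± 481 normalized counts, a log2 fold change of -0.25 (adjusted p = 2.05e-07 by limma), and Edc4, the scaffold of the decapping enzyme, changed by -0.17 (adjusted p = 0.000551 by limma).

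Of 13 genes of the exosome and SKI complex, which degrade RNA from the 3′ end, 2 were higher and 2 lower, so 30.8% were called against 36.6% of all genes. Exosc4 rose by 0.28, and Exosc9 and Exosc5 changed by -0.25 and -0.17 on the log2 scale (adjusted p = 0.00539, 0.00905 and 0.0195 by limma). The call of Exosc9 was lost without cKO replicate 1 (0.0662), and that of Exosc5 with equal totals (0.0897) and without WT replicate 1 (0.0737) or cKO replicate 3 (0.108). Exosc6 was not among the listed genes.

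Other genes named by the same rule were marker genes. Ncr1, whose locus carries Cre in cKO mice, had a log2 fold change of -0.40, and Tbx21, the transcription factor T-bet, had 0.23 (adjusted p = 3.56e-11 and 5.47e-07 by limma). Cd79a, which encodes a part of the B-cell receptor, rose from 201 ± 32.4 to 334 ± 56.7 normalized counts (SD, n = 3), with an adjusted p of 0.000293 by limma.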
